A study of Mus musculus with 10 samples.

Results

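The genes described here are 10 matrix metalloproteinase and inhibitor genes of the mouse: Mmp2, Mmp3, Mmp9, Mmp10, Mmp11, Mmp13, Mmp14, Timp1, Timp2 and Timp3. They were chosen by name, as 7 metalloproteinase genes and 3 inhibitor genes out of the 23201 gene rows of the count table, and all 10 were found. The table holds mouse embryonic fibroblasts (MEFs, a primary culture of connective tissue cells, from embryos of the outbred ICR strain) that were turned towards extraembryonic endoderm-like (XEN-like) cells, the yolk sac lineage, over 20 days. The cocktail C6FAE was CHIR99021 at 20 µM, RepSox at 10 µM, Forskolin at 50 µM, AM580 at 0.05 µM and EPZ004777 at 5 µM, in a medium with serum and basic fibroblast growth factor. The cells of d0 are the MEFs before the cocktail, and those of d1 to d20 received it. The cells were picked by hand after digestion at 10 time points, and the names give 12 groups, because cells from colonies of day 8 (d8c) and day 12 (d12c) were kept apart. What the letter p in the name d6p stands for is not given in the sources used here. The study's methods list valproic acid in the induction medium as well, while the labels of these cells name C6FAE alone. The culture is a mixture of colonies and cells outside them. The study counted colonies before day 8, the first day from which colony cells were kept apart.

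Matrix metalloproteinases are zinc enzymes that cut collagens, laminins and other matrix proteins, and fibroblasts are a main source of them. Most are secreted as inactive proenzymes, while MMP14 sits in the cell membrane, where it binds TIMP2 and cuts proMMP2 into its active form. Tissue inhibitors of metalloproteinases (TIMPs) block the active site of the enzymes, and TIMP3 is the one that stays bound to the matrix. Enzyme activity is set by secretion, cleavage and inhibition as well as by the RNA, and only the RNA was measured here.

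In the mouse genome build NCBIM37 (mm9), Mmp13 (chromosome 9, 7272514 to 7283333), Mmp3 (7445822 to 7455972) and Mmp10 (7502352 to 7510238) lie on the plus strand of chromosome 9 in a stretch of 237725 bases that also holds Mmp12, Mmp1b and Mmp1a. The other members lie apart. Mmp2 is on chromosome 8 (95351227 to 95377316), Mmp9 on chromosome 2 (164766280 to 164781350), Mmp11 on chromosome 10 (75385967 to 75400678), Mmp14 on chromosome 14 (55050441 to 55060095), Timp1 on the X chromosome (20447292 to 20451861), Timp2 on chromosome 11 (118162383 to 118217054) and Timp3 on chromosome 10 (85763117 to 85812251). Timp1 and Timp3 lie within the synapsin genes Syn1 and Syn3 on the opposite strand, and whether the counting used strand is not stated. Chchd10 overlaps Mmp11 and Gm11067 overlaps Mmp14 on the opposite strand. On the same strand, the minus strand, Gm867 overlaps the start of the Mmp11 gene and BC100451 lies within Timp2. Strand could not part these, and their share in the counts was not tested. Syn1 reached a mean of 21.5 CPM at d4 and Syn3 at most 0.84 CPM in any group.

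The 3 members of the chromosome 9 stretch were also the members whose sequence just upstream of the gene start held the motif TGAGTCA or its reverse complement TGACTCA, the letters known as a binding site of AP-1 (FOS and JUN) factors. Both strands were searched in the 250 bases before the start in RefSeq (build GRCm38.p6), where 8 of the 10 members had an entry (not Mmp2 and Mmp9). The motif was in 3 of these 8 and in 1466 of all 32851 windows (4.46%). It starts 46 bases before the start of Mmp3, 63 before that of Mmp10 and 35 before that of Mmp13. A match in the letters is not a measured binding site. The 3 windows are shown because they hold the motif, which is in capitals.
Mmp3: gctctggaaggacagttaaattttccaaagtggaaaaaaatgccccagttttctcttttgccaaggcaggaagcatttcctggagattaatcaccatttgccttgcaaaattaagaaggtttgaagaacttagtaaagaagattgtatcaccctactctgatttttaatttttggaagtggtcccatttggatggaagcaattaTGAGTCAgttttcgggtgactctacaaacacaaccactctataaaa
Mmp10: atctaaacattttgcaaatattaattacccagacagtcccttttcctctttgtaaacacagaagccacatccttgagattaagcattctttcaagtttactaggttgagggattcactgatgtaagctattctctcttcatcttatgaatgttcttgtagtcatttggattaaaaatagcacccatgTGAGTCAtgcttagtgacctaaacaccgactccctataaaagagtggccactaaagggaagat
Mmp13: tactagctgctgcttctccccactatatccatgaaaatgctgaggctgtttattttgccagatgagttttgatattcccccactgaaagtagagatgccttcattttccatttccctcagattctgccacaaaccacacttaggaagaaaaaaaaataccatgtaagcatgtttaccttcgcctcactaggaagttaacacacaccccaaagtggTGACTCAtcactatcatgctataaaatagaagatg
These windows lie at chr9:7445572-7445821 (Mmp3), chr9:7502092-7502341 (Mmp10) and chr9:7272264-7272513 (Mmp13) of GRCm38.p6, all on the plus strand.

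Of 808 deposited cells, 670 had at least 4000 detected genes and were used, with 20 to 86 cells per group and a median of 510306 unique molecular identifiers (UMIs, each counting 1 captured RNA molecule) per cell. Depth differed between groups, from a median of 195480 UMIs at d20 to 1055210 at d2, and the filter left out 34 of 72 cells at d20, 45 of 96 at d12c and 12 of 84 at d0. The cells could not be assigned to the 10 labelled batches, so each group counts as 1 sample. Cells are not replicates, and no test was made. Levels are counts per 1000000 UMIs of the cell (CPM), leaving out the ERCC spike-in RNA, and a difference is between means of log2(CPM + 1) over cells. A gene is called past the fold where that difference is over 1 in size and its mean is at least 1 in either group, and the share of all such genes past the fold is given as background. Intervals cover counting error only. The 12 listed fibroblast markers had a median sum of 3549 CPM at d0 and 253 CPM at d20, and the 12 XEN markers 124 CPM and 3823 CPM. Presence of a UMI did not part the groups, with 12 fibroblast markers found at d0 and 10 at d20, and 9 XEN markers at d0 and 12 at d20.

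By d6p the metalloproteinase genes had a higher sum than at d0 and the inhibitor genes a lower one. Summed over the 7 metalloproteinase genes, the median cell had 201 CPM at d0 (quartiles 113 and 307, n = 72), 673 CPM at d3 (190 and 1782, n = 38) and 555 CPM at d6p (295 and 940, n = 86). Summed over the 3 inhibitor genes, it had 1000.4 CPM at d0 (656 and 1533), 534 CPM at d3 and 285 CPM at d6p (201 and 482). The metalloproteinase sum was above the inhibitor sum in 1 of 72 cells at d0 (1.39%, exact 95% interval 0.0352 to 7.50) and in 63 of 86 at d6p (73.3%, 62.6 to 82.2). At d12 the inhibitor sum was again the larger in most cells, with a median of 1359 CPM against 646 CPM, and the metalloproteinase sum was above it in 17 of 67 cells (25.4%, 15.5 to 37.5). Both sums were low at d20, at 150 CPM for the inhibitors and 5.84 CPM for the metalloproteinases. Capture may differ between genes, so the share is read between groups and not as a ratio of molecules, and it says nothing of amounts of protein.

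**Figure D1:**
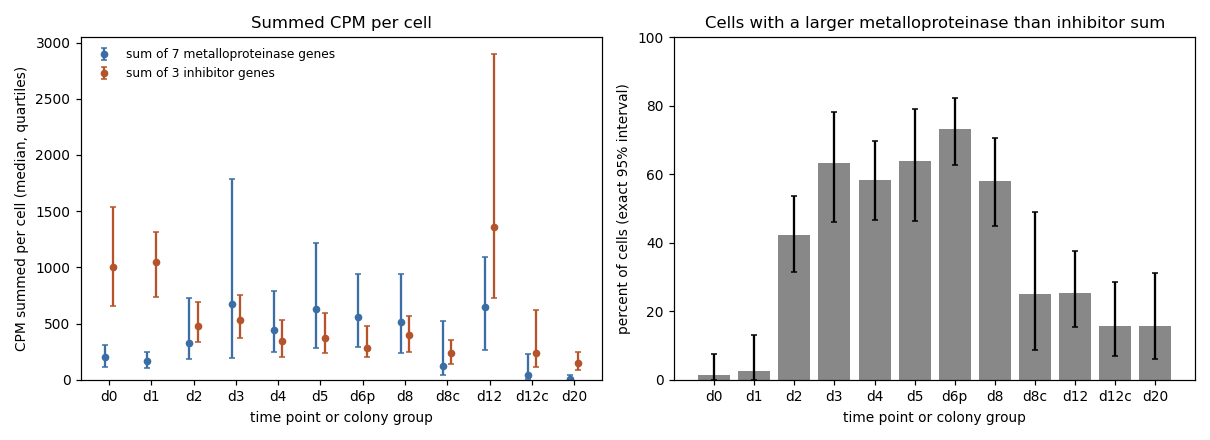
Left, CPM per cell summed over 7 metalloproteinase genes and over 3 inhibitor genes in 12 groups (points, medians; bars, quartiles over cells). Right, percent of cells in which the first sum is the larger, with exact 95% intervals; the share is 1.39% at d0, 73.3% at d6p and 25.4% at d12.

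**Figure D2:**
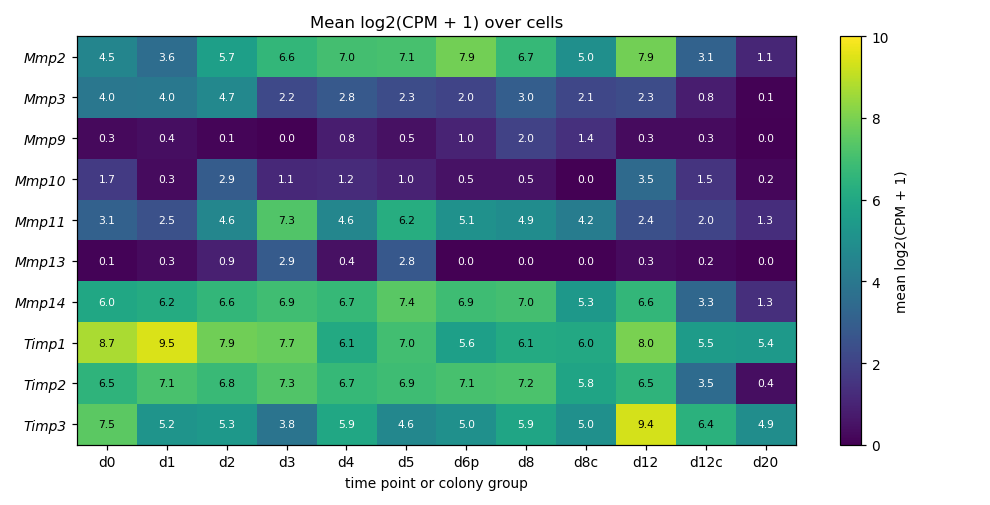
Mean log2(CPM + 1) of the 10 genes (rows) in 12 groups (columns), with the value written in each field. Timp3 stands at its highest at d12, Mmp11 at d3, and every gene but Timp1 and Timp3 is under 2 at d20.

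Mmp2, gelatinase A, which cuts denatured collagen and the type IV collagen of basement membranes, had a higher mean at each time point from d2 to d6p than at the one before. It had a median of 27.3 CPM at d0 (lowest 0, highest 275), 62.3 CPM at d2, 138 CPM at d4, 259 CPM at d6p (highest 1719) and 323 CPM at d12 (highest 1409). The ranges of single cells overlapped between all these groups. At least 20 CPM were found in 44 of 72 cells at d0, in 86 of 86 at d6p and in 66 of 67 at d12. At d8 it was lower than at d6p, with a median of 107 CPM, a difference of -1.17 in mean log2(CPM + 1). At d20 Mmp2 had a median of 0 CPM, and 5 of 38 cells reached 20 CPM.

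Mmp14, the membrane-bound activator of proMMP2, and Timp2, the inhibitor that takes part in that activation, followed like courses. From d0 to d12, with d8c and d12c left out, their medians ran from 92.7 to 231 CPM (Mmp14) and from 106 to 181 CPM (Timp2). The median of Mmp14 was 94.0 CPM at d0, 149 CPM at d6p, 152 CPM at d8 and 140 CPM at d12. The median of Timp2 was 117 CPM at d0, 148 CPM at d6p, 181 CPM at d8 and 120 CPM at d12. Mmp14 was higher than at d0 past the fold at d5 (1.47) and d8 (1.02), while its difference was 0.66 at d12. Timp2 differed by 0.79 at d3, 0.68 at d8 and -0.01 at d12, and was past the fold at none of these points. Over the 12 group means of log2(CPM + 1), the 2 genes had a Pearson correlation of 0.97, the highest of the member pairs, and Mmp2 and Mmp14 had 0.88. These groups share the course and differ in depth, and 2 of them, d12c and d20, are low in all 3 genes. Over the cells within a group, the Spearman correlation of Mmp14 with Timp2 ran from 0.20 at d5 (n = 36) to 0.83 at d12c (n = 51), where Mmp14 had a median of 0.01 with all detected genes. The d12c group joins 2 unlike sets, since the medians of Mmp14 and Timp2 were 53.6 and 66.7 CPM in the cells numbered 1 to 24 and 0 CPM in those numbered 49 to 96. At d12 (n = 67) it was 0.52, against a median of 0.04 for Mmp14 with the 7632 detected genes.

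Mmp3, stromelysin 1, which cuts many matrix proteins and activates other metalloproteinases, went from a low level in most cells to a high level in few. At d0 its median was 17.6 CPM (lowest 0, highest 315), with 20 CPM or more in 30 of 72 cells. At d2 the median was 20.6 CPM and the highest cell 2762 CPM, with 6 of 83 cells over 1000 CPM. From d3 to d12, with d8c and d12c left out, the median lay between 2.12 CPM (d5) and 4.29 CPM (d4). The highest cell of each of these groups had between 597 CPM (d8) and 2597 CPM (d4). The direction against d0 therefore depended on the average. At d4 the difference in mean log2(CPM + 1) was -1.17, and the log2 of the mean CPM + 1 was higher by 1.77. The most extreme cell was at d1, where 1 cell held 16015 of the Mmp3 UMIs (96.04%, 10090 CPM), while the median over the 40 cells was 9.40 CPM and the mean without that cell 34.5 CPM. At d20 1 of 38 cells had a UMI of Mmp3.

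Mmp10, stromelysin 2, a close relative of Mmp3, had its highest means at d12 and d2. Its median was 1.96 CPM at d0 and 6.57 CPM at d2, where 22 of 83 cells reached 20 CPM and the highest had 1273 CPM. From d3 to d8 the median was 0 CPM, but some cells were high. The mean was 22.7 CPM at d3, 24.7 CPM at d4 and 19.8 CPM at d6p against 5.33 CPM at d0, the highest cells of these 3 groups had 420, 475 and 1630 CPM, and 9 of 77 cells reached 20 CPM at d4 against 3 of 72 at d0. At d12 the median was 5.63 CPM, 62 of 67 cells had a UMI, 16 reached 20 CPM and 4 were over 1000 CPM (highest 1709). None of the 20 cells of d8c had a UMI of Mmp10, which allows a share of up to 15% (3 cells of the group, the limit used throughout for a count of 0), and the exact 95% interval reaches 16.8%. The cells of 1 time point were not alike by their running number. At d0 Mmp10 had a UMI in 2 of 23 cells numbered 1 to 24 and in 17 of 19 numbered 49 to 72, and at d2 in 6 of 23 and 21 of 23. What the numbers mark is not given, and their part in the result was not tested. At d2 Mmp10 and Mmp3 went together over the 83 cells (Spearman 0.64, with a median of 0.00 for Mmp3 over all 8675 detected genes). Of these genes, Mmp10 included, 0.02% had a correlation with Mmp3 as high. Mmp3 also differed by running number at d2, with a median of 6.92 CPM in cells 1 to 24 and 46.2 CPM in cells 49 to 72. These ranges differed in depth too, with medians of 721613 and 1474420 UMIs. The correlation joins these unlike sets and was not computed within them.

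Mmp11, stromelysin 3, which is activated inside the cell by furin and is known from stroma in remodelling tissue, peaked early. Its median was 7.99 CPM at d0 (highest 217), 15.2 CPM at d2, 240 CPM at d3 (quartiles 21.4 and 904, highest 3780), 17.5 CPM at d4, 83.5 CPM at d5 and 26.9 CPM at d6p. At d3, 29 of 38 cells reached 20 CPM and 8 were over 1000 CPM, so the level at d3 was carried by many cells. The d3 cells numbered 1 to 24 and 25 to 48 were alike, with medians of 240 and 292 CPM. The difference of d3 minus d0 was 4.16 in mean log2(CPM + 1). At d12 the median was 1.77 CPM, below that of d0, while the mean was 62.6 CPM against 19.5 CPM, so the direction turned with the average. Over the 38 cells of d3, Mmp11 went with Mmp14 (Spearman 0.76, against a median of 0.03 for Mmp11 with 8394 detected genes), and at d5 the value was 0.58 (n = 36).

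Mmp13, collagenase 3, which cuts fibrillar collagen and is known from cartilage and bone, was carried by single cells. At d5 1 cell held 13485 UMIs (98.95% of the group's Mmp13 UMIs, 10904 CPM), and the other 35 cells held 0 to 17 UMIs each. That cell was also the highest in Mmp3 at d5 (2465 CPM) and had 1382 CPM of Mmp11. At d3 2 cells had 1601 and 1116 CPM, and the median was 4.25 CPM. A UMI of Mmp13 was present in 35 of 38 cells at d3 and 33 of 36 at d5, but in 10 of 77 at d4 (13.0%, 6.41 to 22.6), and in none of 62 cells at d8, which allows up to 4.84%. Only 4 of the 38 cells at d3 and 1 of 36 at d5 reached 20 CPM. Low counts in nearly all cells stood in d3 and d5, the groups that held a cell with over 1000 CPM. The cells over 1000 CPM were all numbered 1 to 24. Among cells numbered 25 to 48, 15 of 16 at d3 and 10 of 12 at d5 also had a UMI. At d2, with no cell over 1000 CPM, a UMI was present in 16 of 22 cells numbered 25 to 48. In the other d2 ranges it was in 8 of 23, 7 of 23 and 3 of 15. Whether the low counts are connected with the high cells was not tested. Without the highest cell, the mean at d5 was 5.90 CPM in place of 309 CPM.

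Mmp9, gelatinase B, which macrophages and neutrophils are known to release, was scarce throughout. Its mean stayed under 20 CPM in every group and its median was above 0 only at d8 (2.79 CPM) and d8c (0.59 CPM). At d8 46 of 62 cells had a UMI, 6 reached 20 CPM, and 1 cell held 85.3% of the UMIs (617 CPM). Without this cell the mean was 7.49 CPM in place of 17.3 CPM. The same cell had 0 CPM of Ptprc, the pan-leukocyte gene, and 49.3 CPM of Csf1r, a macrophage receptor gene. Of the 10 listed macrophage and neutrophil genes, Ptprc, Lyz2, Adgre1, Itgam and Fcgr1 had a mean of at most 0.31 CPM in every group and S100a9 no UMI, while Csf1r, Cd68, Cd14 and S100a8 reached means of 13.4, 21.6, 48.5 and 84.1 CPM in the group where each was highest. Together the 10 genes had a median sum of 1.38 CPM at d8 (0 to 290) and 48.7 CPM at d12 (4.49 to 1201). At d12 against d0, 4 of these 10 genes passed the minimum, and S100a8 (3.21), Cd14 (2.60) and Csf1r (1.16) were higher, where 19.8% of all 9611 genes were higher. The part of these genes in the members' levels was not tested. Mmp9 had no UMI at d20, which allows a share of up to 7.89% of the 38 cells.

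**Figure D3:**
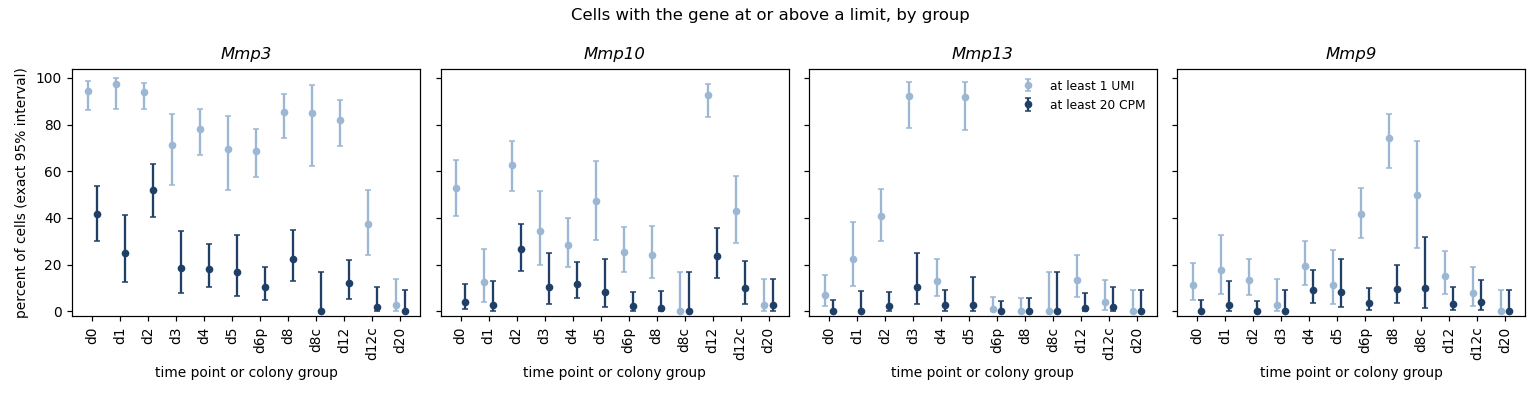
Percent of cells with at least 1 UMI (light) and with at least 20 CPM (dark) of Mmp3, Mmp10, Mmp13 and Mmp9 in 12 groups, with exact 95% intervals. For Mmp13 the light points are at 92.1% at d3 and 91.7% at d5 and the dark ones at 10.5% and 2.78%.

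Timp1, the inhibitor that also supports cell growth, was lower from d2 on than at d0 and d1. Its median was 504 CPM at d0, 711 CPM at d1 (highest 2886), 253 CPM at d2, 70.2 CPM at d4 and 51.5 CPM at d6p (highest 532). At d12 it was 265 CPM (lowest 45.4, highest 2572), with 20 CPM or more in 67 of 67 cells. This median was below that of d0 and above those of d4, d5, d6p and d8, which lay between 51.5 and 153 CPM. At d20 it was 79.3 CPM, and 27 of 38 cells reached 20 CPM.

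Timp3, the inhibitor held in the matrix, was lower from the first day and highest at day 12. Its median was 249 CPM at d0, 33.7 CPM at d1 and 14.3 CPM at d3. It lay between 24.6 CPM (d5) and 65.5 CPM (d4) from d4 to d8. At d12 the median was 674 CPM (quartiles 275 and 2158, highest 9760), and 28 of 67 cells were over 1000 CPM, against 3 of 72 at d0. The d12 medians of the cells numbered 1 to 24, 25 to 48 and 49 to 72 were 635, 660 and 890 CPM. At d0 the same ranges had 141, 299 and 342 CPM.

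**Figure D4:**
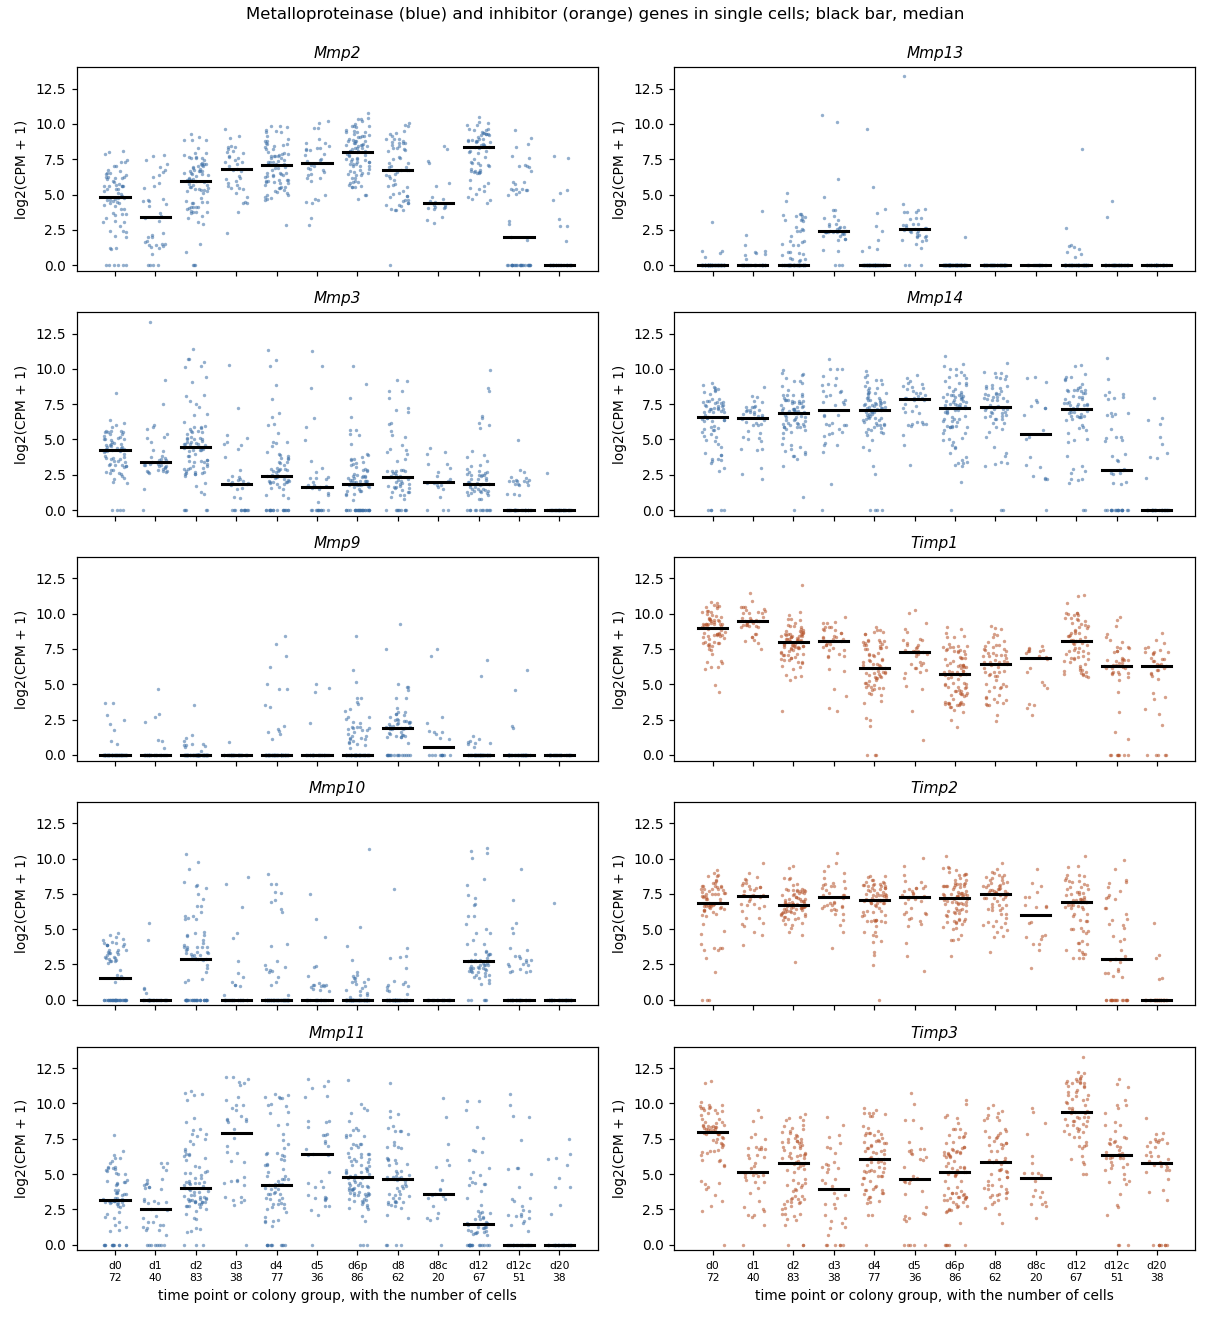
log2(CPM + 1) of the 10 genes in each of the 670 cells (points), by group, with the number of cells under each group name and the median as a black bar. Mmp13 and Mmp3 show single cells far above the rest, while for Mmp2 and Timp3 the medians move between groups whose cells overlap.

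Set against the starting MEFs, d6p had Mmp2 (3.33) and Mmp11 (1.96) higher past the fold and Timp1 (-3.09), Timp3 (-2.47), Mmp3 (-1.93) and Mmp10 (-1.22) lower, as differences in mean log2(CPM + 1). These are 6 of the 8 members that passed the minimum, 2 of them higher and 4 lower. Among all 9436 genes compared, 14.9% were higher and 17.9% lower past the fold. The median difference was -0.32 for the 8 members and -0.09 for all genes. Mmp9 and Mmp13 did not pass the minimum. For Mmp10 and Mmp3 the direction rested on the average. 1 cell with 1630 CPM of Mmp10 made its log2 of the mean CPM + 1 higher by 1.72, and for Mmp3 that measure was higher by 0.16. With a fold over 2 on the log2 scale, 3 members remained past it, Mmp2, Timp1 and Timp3.

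At d12 the pattern was another one. Mmp2 (3.32), Timp3 (1.88) and Mmp10 (1.76) were higher than at d0 and Mmp3 (-1.65) lower (0.41 higher by the log2 of the mean CPM + 1), 4 of the 8 members that passed the minimum, while 19.8% of 9611 genes were higher and 16.3% lower. The members had a median difference of 0.32 and all genes of -0.01. The rise of the Mmp10 median depended on the d0 cells used. At d0 it was 0 CPM in cells numbered 1 to 24 and 0.67 CPM in those numbered 25 to 48. In those numbered 49 to 72 and 73 to 96 it was 6.998 and 7.63 CPM, above the 5.63 CPM of all d12 cells. By range, the d12 medians were 8.19, 4.53 and 4.44 CPM. The means were higher at d12 in every range, at 27.6 CPM or more against at most 9.695 CPM at d0. Against d8, Timp3 (3.49), Mmp10 (2.97), Timp1 (1.88) and Mmp2 (1.15) were higher and Mmp11 (-2.43) and Mmp9 (-1.69) lower, 6 of 9 members. The background there was 14.2% higher and 14.6% lower, with a median of -0.13 over all genes and -0.36 over the members. Both comparisons use the d12 cells.

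Among the colony cells, most members were lower together in 1 set of d12c cells, and fewer were past the fold in the others. The d8c cells (n = 20) had Mmp2 (-1.72), Mmp14 (-1.65) and Timp2 (-1.34) lower than the d8 cells past the fold, 3 of 8 members, where 16% of 9278 genes were lower. The d12c cells differed by running number, and no cell numbered 25 to 48 passed the filter. Those numbered 1 to 24 (n = 21) had Timp3 (-1.26) and Mmp2 (-1.19) lower than the d12 cells past the fold, 2 of 8 members against 8.92% of 9217 genes. The median difference there was -0.71 for the members and -0.16 for all genes. Those numbered 49 to 96 (n = 30) had 7 of 8 members lower than at d12, against 32.2% of 9648 genes, with a median of -3.91 for the members and -0.34 for all genes. The differences were -7.18 for Mmp2, -4.99 for Mmp14, -4.85 for Timp2, -4.20 for Timp3, -3.62 for Timp1, -3.34 for Mmp10 and -2.23 for Mmp3. Mmp11 differed by -0.92, and 5 of these 30 cells still had 20 CPM or more of it (highest 1622 CPM). Of the 12 fibroblast markers, 12 were lower in these 30 cells than at d12, where 32.2% of all 9648 genes were lower. Among the 10 XEN markers that passed the minimum, 8 were higher, where 17.3% of all genes were. Of these 30 cells, 6 had a UMI of Mmp2 against 67 of 67 at d12. After thinning to 50000 UMIs, which left out the shallower cells, it was 15.4% of 26 cells against 95.5% of 66.

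The d20 cells (n = 38) had 8 of 8 members lower than d12 past the fold, where 30.9% of 9749 genes were lower. The members had a median difference of -3.87 and all genes of -0.20. Mmp2 (-6.78), Timp2 (-6.10), Mmp14 (-5.30) and Timp3 (-4.46) differed most and Mmp11 (-1.13) least. Against d0, 8 of 8 members were lower, where 25.1% of 9352 genes were lower. The inhibitors parted at the end. Timp1 (79.3 CPM) and Timp3 (54.2 CPM) kept a median above 0 at d20, with a UMI in 33 and 30 of 38 cells, while Timp2 had a UMI in 5. The d20 cells were also set against the d12c cells numbered 49 to 96. Of 6 members that passed the minimum, Timp1 was higher (1.01) and Timp2 lower (-1.26), where 14.9% of 8522 genes were higher and 10.3% lower, and for Timp1 the direction turned with a lower limit on detected genes. The mean of Timp2 was 1.59 CPM at d20 and 50.5 CPM in those d12c cells, and that of Mmp11 13.4 and 77.6 CPM. The median of both genes was 0 CPM in both groups. The highest of those d12c cells had 945 CPM of Timp2 and 1622 CPM of Mmp11. In mean log2(CPM + 1) Mmp11 differed by -0.22, which is not past the fold. Depth at d20 was the lowest of the course. After the same thinning, Mmp2 was found in 22.2% of the 36 d20 cells left and in 95.5% of the d12 cells.

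**Figure D5:**
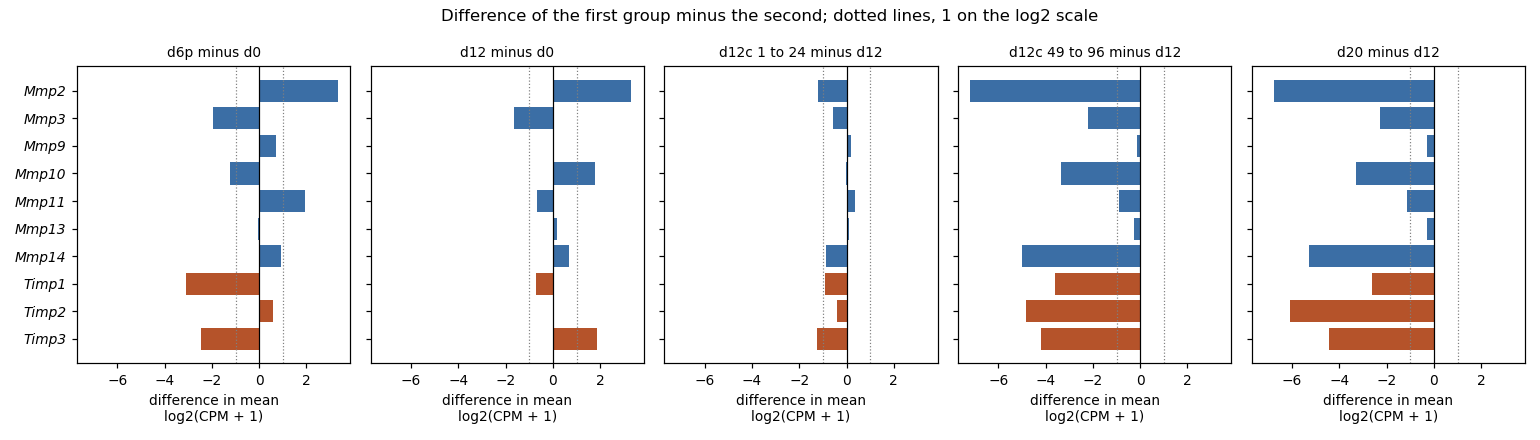
Difference in mean log2(CPM + 1) of the 10 genes for 5 pairs of groups, first minus second (blue, metalloproteinases; orange, inhibitors; dotted lines at 1 in either direction). Mmp2 is higher by 3.33 at d6p and 3.32 at d12 against d0, and lower by 7.18 and 6.78 in the 2 late groups against d12.

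Sox17 is the endoderm transcription factor gene that marks the way to XEN-like cells. From d3 to d8c, 22 cells had 20 CPM or more of Sox17 and 207 had no UMI of it. Mmp2 had a median of 45.6 CPM in the former and 155 CPM in the latter, and the difference in mean log2(CPM + 1), with the latter weighted to the same time points, was -0.91. With 1 UMI as the limit (112 cells) Mmp2 differed by 0.16, so it was not lower there. These 112 cells had a median depth of 902884 UMIs, against 375704 in the cells with no UMI of Sox17. No member was past the fold in either setting. At d12, 6 cells had at least 100 CPM of Sox17. Their median was 29.2 CPM of Mmp2 against 331 CPM in the other 61, 10.2 CPM of Timp2 against 121 CPM, and 185 CPM of Timp3 against 749 CPM, with overlapping ranges. In the d12c cells numbered 1 to 24, the 7 such cells had medians of 41.1 CPM of Mmp2 against 132 CPM in the other 14, and of 165 CPM of Timp1 against 102 CPM, so Timp1 was not the lower one there. These limits on Sox17 were set with results of these data known.

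Genes with the most similar course were looked for among the 8112 genes that reached a mean of 20 CPM in any group, by the Pearson correlation of mean log2(CPM + 1) over the 12 groups. For Mmp13 the closest was Sp7 (0.98), the osteoblast transcription factor gene also called osterix, with means of 35.6 CPM at d3, 7.92 CPM at d4 and 45.8 CPM at d5 and under 4 CPM in the others. For Mmp14 it was Serpinf1 (0.98), which encodes the secreted factor PEDF, and for Timp2 Fkbp10 (0.98), a collagen chaperone gene, came next to Smim10l1 (0.98). Ch25h (0.96), cholesterol 25-hydroxylase, was closest to Mmp3 and Tmem127 (0.96) to Mmp2. Ptx3 (0.90), a secreted pentraxin gene, was among the closest to Timp3, with 401 CPM at d0, 1.79 CPM at d3 and 195 CPM at d12. Mmp9 did not reach the level needed.

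Of the 16 other metalloproteinase genes, 3 passed the minimum for d12 minus d0, and Mmp23 (1.70) and Mmp19 (1.19) were higher, where 19.8% of all 9611 genes were. The plasminogen system, whose protease plasmin can activate metalloproteinases, had 4 of 7 genes higher and 2 lower at d12 against d0, where 19.8% of all genes were higher and 16.3% lower. Plau, the urokinase gene, had a mean of 16.6 CPM at d0, 7.70 CPM at d6p and 187 CPM at d12. Plaur, its receptor gene, had 181, 4.05 and 256 CPM at these points, and Serpinb2, an inhibitor of urokinase, had 0.38, 0.42 and 125 CPM. At d20 against d12, 6 of 7 genes of this system were lower and 8 of the 12 ADAM and ADAMTS genes that passed the minimum, where 30.9% of all genes were lower. Adamts2, which trims procollagen, had a mean of 12.1 CPM at d0, 445 CPM at d8 and 0.12 CPM at d20. Reck, a membrane inhibitor of metalloproteinases, had 5.57 CPM at d0 and 32.5 CPM at d8. Bsg, the surface protein known to induce metalloproteinases in neighbouring cells, was present throughout (711 CPM at d0, 1257 CPM at d12, 1306 CPM at d20).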

How the data were processed

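Single cells were picked by hand, and the authors assigned reads to cells by barcode, trimmed and aligned these to mm9 transcripts, and collapsed duplicates with the UMIs. The aligner is not given in the sources used here. The deposited table holds whole UMI counts per gene and cell, with 92 ERCC rows, and its 5 highest counts look rounded. The 26 rows with date-like names were kept in the totals, and 4 rows with a repeated name were left out. Cells below 4000 detected genes were left out. Counts were scaled to CPM without ERCC rows, and means of log2(CPM + 1) over cells were compared (Python 3.11.15, pandas 2.3.3, numpy 2.4.6), with exact Clopper-Pearson and Poisson intervals at 95% (scipy 1.17.1). The differences were tested on simulated cells with the depths of d12 and d20. All 200 genes changed 4-fold were recovered, 100 of them higher and 100 lower. These 200 were drawn from genes with a mean of at least 20 CPM at d12, and every gene had the same spread between cells put in. The simulation therefore cannot show how changes are recovered in low genes or in genes that are high in few cells. Of the 11131 unchanged genes that passed the minimum, 287 were past the fold. The median difference over these 11131 genes was -0.36 for d20 minus d12, although no change was put in for them. No doublet caller was run, as cells were picked singly. Alternatives used TMM factors (edgeR 4.0.16) and DESeq2 1.42.0 size factors on the summed UMIs of each group, other filters, other averages and thinning to 50000 UMIs. The genes, lists and limits were chosen with earlier results of these data known. Named genes were the 10 members, the listed pathway genes and markers, and for each member reaching a mean of 20 CPM the 2 genes most alike over the 12 groups, some of which are described.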

Additional observations from a re-analysis of the deposited data

How the results depend on the processing

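No paired analysis was possible because the cells could not be assigned to the labelled batches and no test was made. Dropping the minimum mean could change none of the 118 differences of members past the fold, as all had passed it. Of the 118, 116 stayed past the fold and moved by at most 1 with TMM factors and with DESeq2 size factors. This held for 114 with the ERCC counts added to each cell's total, which is not a scaling to the spike-in. It held for 99 after thinning and 93 with the median. Without a filter on cells it held for 105, and with at least 2000 and 6000 detected genes for 109 and 102. It held for only 51 with a pseudocount of 10, 62 with a fold over 2, 56 with the log2 of the mean CPM + 1 and 49 with summed UMIs. The sign turned for 8 with each of the last 2 and for 1 with at least 2000 detected genes. The count of members past the fold was 3 in place of 6 for d6p minus d0 and 1 in place of 4 for d12 minus d0 with a fold over 2 on the log2 scale, and 2 in place of 4 for d12 minus d0 with a pseudocount of 10. The counts for d20 minus d0, d20 minus d12 and d12c 49 to 96 minus d12 stayed within 1.5 times under every alternative run. The sign turned where few cells were high. With the log2 of the mean CPM + 1 and of the CPM of summed UMIs + 1, Mmp3 minus its d0 level was 0.74 and 0.86 at d3, 1.77 and 2.04 at d4, 2.19 and 2.98 at d5, 0.16 and 0.88 at d6p, and 0.41 and 0.80 at d12. In d12c minus d0 they were 0.47 and 0.93 for Mmp2 and 1.97 and 1.80 for Mmp11, and the second was 0.11 for Timp3. Mmp10 at d6p gave 1.72 with the first. Timp1 in d20 minus d12c 49 to 96 was -0.017 with at least 2000 detected genes. Depth limits low genes most at d20, where a gene without a UMI in any of 38 cells may still have one in up to 7.89% of cells.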
